A study of Rattus norvegicus with 20 samples.

Results

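The genes described here encode the receptors for glutamate and the proteins that hold these receptors at the synapse. They were taken by name from a list, and the list used no measured value. All 34 listed symbols were found among the 17168 genes of both count tables. They comprised 4 AMPA receptor subunits, 7 NMDA receptor subunits, 5 kainate receptor subunits, 1 delta receptor, 6 metabotropic receptors, 2 kainate receptor auxiliary subunits and 9 scaffolds. All 34 averaged 10 or more estimated counts per rat in both tables, and the main fit had no filter on low values. An alternative filter of at least 10 counts in every rat left out Grin3b between genotypes, where its lowest count was 8.

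RNAseq was run on the hippocampus of 20 females, all 4 months old, and the rats form 2 comparisons. The genotype comparison held 5 untreated wild-type rats (WTNT) and 5 untreated TgF344-AD rats (TGNT), which carry the human APPsw and PS1-ΔE9 transgenes under the prion promoter on the F344 background. The treatment comparison held 4 other TGNT rats and 6 TgF344-AD rats (TGTR) whose chow held both diazoxide (DZ) and dibenzoylmethane (DIB) from day 52, at 10 and 200 mg/kg per day, so both of its groups carry the transgenes. Each rat gave 1 library of a whole hippocampus, all rats had been perfused under anaesthesia, and no treated wild-type rats were sequenced. The sample labels name the left hippocampus and the study's methods name the right. The paper states that rats ran a radial arm maze at 4 months under food restriction, after which some were taken for RNAseq.

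Glutamate is the main excitatory transmitter of the hippocampus. AMPA receptors carry most of the fast current, NMDA receptors admit calcium when glutamate and depolarization coincide, and kainate receptors act on both sides of the synapse. Metabotropic receptors signal through G proteins, and scaffolds of the postsynaptic density tie receptors to each other and to the cytoskeleton. In the hippocampus the strength of these synapses is tied to learning, and synapse loss is a known feature of Alzheimer's disease.

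Estimated counts summed to between 5848458 and 9926088 per rat in the genotype table and to between 9215039 and 14175594 per rat in the treatment table. App, where rat and human transcripts were counted together, had 2071 to 2364 RPM (the count scaled to library size) in the TGNT group against 1031 to 1160 RPM in the WTNT group, which matched the labels. Neuronal markers were abundant in every library, as a whole hippocampus should give. Choroid plexus markers stood at a mean log2(RPM + 1) of 7.21 in TGTR replicate 5 and 3.54 in TGTR replicate 6, against 0.621 to 1.67 in the other 8 rats of that table. The dentate granule cell markers were lowest in WTNT replicate 3, at 3.52 against 4.49 to 4.83 in the other WTNT rats. In such bulk tissue, fewer cells of a type and less RNA per cell cannot be told apart.

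Together the 34 genes took 1.05% ± 0.074 (SD, n = 5) of the counts in WTNT and 1.01% ± 0.0303 (SD, n = 5) in TGNT rats. In the treatment table they took 1.00% ± 0.0267 (SD, n = 4) in TGNT and 0.994% ± 0.0463 (SD, n = 6) in TGTR rats. Scaffolds and AMPA receptor subunits held most of this share, with 0.367% and 0.358% of the counts in WTNT rats. NMDA receptor subunits followed with 0.182%, while the kainate receptor subunits had 0.0374% and the delta receptor Grid1 had 0.00696%. These shares count reads and are not divided by transcript length, so they do not rank the genes by molecules.

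No member passed the threshold of an adjusted p under 0.05 with at least a 1.5-fold difference in either comparison. The count was 0 of 34 with edgeR's quasi-likelihood test, and also 0 of 34 with its exact and likelihood ratio tests, DESeq2 and limma. Over all genes the same rule called 2 of 17168 (0.0116%) between genotypes and 0 of 17168 (0.0%) between treatments with the quasi-likelihood test. In the treatment table edgeR's exact test called 4 genes, its likelihood ratio test 5 and DESeq2 3. The lowest adjusted p of any member was 1 between genotypes and 0.858 between treatments (edgeR, quasi-likelihood). A p that misses the threshold does not show that the groups were alike. What follows is therefore the size and direction of differences within a spread that they did not exceed after adjustment. No member had groups without overlap in either comparison, against 0.652% of the 11357 genes averaging 10 or more counts between genotypes and 1.45% of the 12029 such genes between treatments.

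**Figure D1:**
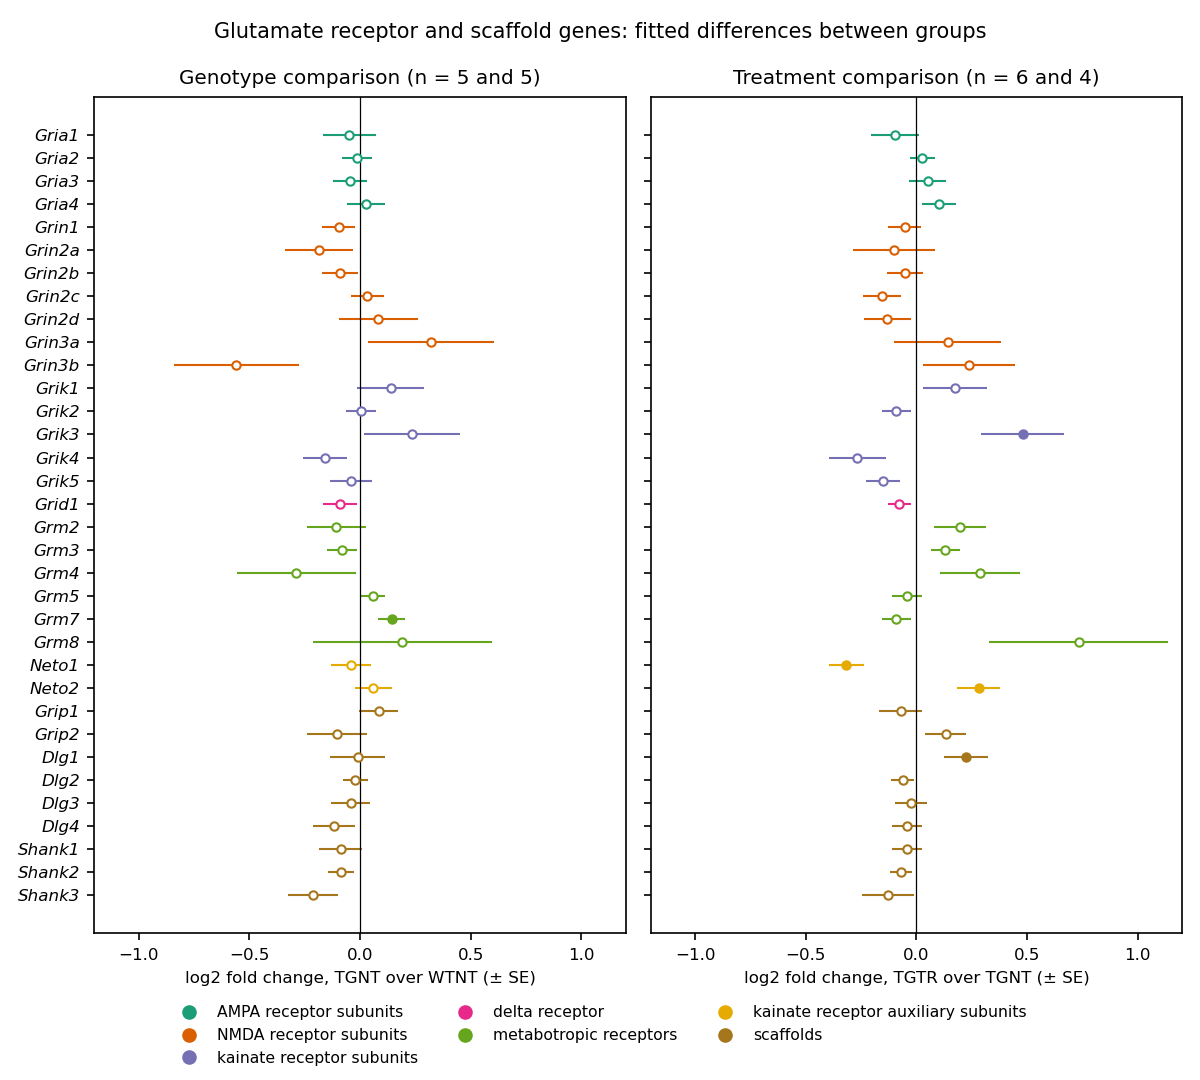
Log2 fold change (x axis, with standard error bars, edgeR) of each of the 34 genes (y axis, coloured by class) in TGNT over WTNT (left) and TGTR over TGNT (right). Filled points have an unadjusted p under 0.05, namely Grm7 on the left at 0.14 and Neto1, Neto2, Grik3 and Dlg1 on the right, between -0.32 and 0.48.

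The genotype comparison asked which transcripts differ between TGNT and WTNT females at 4 months. The median log2 fold change of the 34 genes was -0.04, against 0.0063 over the 11357 genes averaging 10 or more counts. The difference was under 0.1 on the log2 scale in 21 of 34 members and in 7001 of the 11357 genes, and the median absolute difference was 0.0864 over the members and 0.0745 over these genes. TGNT were higher than WTNT rats in 12 members and lower in 22, against 5952 and 5405 of these genes. Beside this, all 5 CA1 pyramidal cell markers had a lower mean in TGNT rats (levels of 6.07 to 6.88 against 6.43 to 6.91), as did all 6 oligodendrocyte markers (8.20 to 8.93 against 8.22 to 9.34). All 6 microglia markers had a higher mean (4.49 to 4.67 against 4.48 to 4.54), as did 5 of 6 interneuron markers (6.32 to 6.45 against 6.00 to 6.60). Of 7 neuronal markers 2 had a higher mean (9.27 to 9.48 against 9.37 to 9.52). The part of these cell types in the result was not tested. At an unadjusted p under 0.05 there was 1 member higher in TGNT and 0 lower, against 1.99% and 1.9% of the 11357 genes (edgeR, quasi-likelihood). All 4 AMPA receptor subunits and 8 of 9 scaffolds differed by 0.12 or less in either direction, Shank3 being the exception among the latter.

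The AMPA receptor subunits form the channel, and Gria2 is the subunit whose editing makes it impermeable to calcium. Gria2 was at 2257, 2267, 1839, 2370 and 2064 RPM in WTNT and at 2253, 2005, 2147, 2102 and 2144 RPM in TGNT rats. The TGNT rats lay inside the range of the WTNT rats, and the log2 fold change from edgeR was -0.01 (SE 0.0682, two-sided exact permutation test of RPM p = 0.802). Gria1, the subunit that is inserted during potentiation, was at 919, 806, 535, 895 and 709 RPM in WTNT and at 879, 744, 710, 670 and 722 RPM in TGNT rats. WTNT replicate 3 was the lowest of all 10 rats, and the log2 fold change was -0.05 (SE 0.12, exact permutation p = 0.722). Gria3 and Gria4 differed by -0.05 and 0.03. The estimated counts of Gria2, Gria3 and Gria4 were fractions in all 10 rats of each table, so RSEM divided some of their reads with other genes and their levels are uncertain, as are those of Grid1, Grm2 and Shank2. The ratio of Gria1 to Gria2 was 0.353 in WTNT and 0.348 in TGNT, with single rats from 0.291 to 0.407 (exact permutation test, two-sided, p = 0.849).

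Among the NMDA receptor subunits, Grin1 is obligatory and the Grin2 and Grin3 subunits set the properties of the channel. Grin1 was at 493, 427, 375, 449 and 405 RPM in WTNT and at 437, 422, 388, 396 and 361 RPM in TGNT rats. The groups overlapped over most of their range (log2 fold change -0.10, SE 0.0746, exact permutation p = 0.262). Grin2a, which replaces Grin2b as synapses mature, was at 829, 811, 472, 843 and 482 RPM in WTNT and at 626, 573, 516, 680 and 617 RPM in TGNT rats. WTNT rats fell into a high set of 3 and a low set of 2, replicates 3 and 5, with every TGNT rat between them (log2 fold change -0.18, SE 0.154, exact permutation p = 0.357). Grin2b was at 710, 655, 506, 677 and 591 RPM in WTNT and at 644, 603, 557, 563 and 569 RPM in TGNT rats. Here too WTNT replicate 3 was the lowest rat (log2 fold change -0.09, SE 0.0818, exact permutation p = 0.333).

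Grin3b, which encodes a subunit known mainly from motor neurons, had the lowest level of the 34 genes, with 8 to 20 counts per rat in the genotype table. It was at 3.15, 2.05, 1.27, 2.56 and 2.55 RPM in WTNT and at 1.75, 1.96, 1.65, 1.07 and 1.25 RPM in TGNT rats. Of the WTNT rats 4 were above every TGNT rat, and replicate 3 lay among the TGNT rats. The log2 fold change was -0.56 (SE 0.282) and the exact permutation test of RPM gave p = 0.0556 (two-sided). In 4 of the 10 rats the count of this gene was a fraction. Grin2c, Grin2d and Grin3a differed by 0.03, 0.08 and 0.32, and their exact permutation p-values were between 0.413 and 0.738.

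Of the kainate receptor subunits, Grik2 forms channels alone or with Grik4 and Grik5 and is abundant at mossy fibre synapses. It was at 81.5, 85.6, 91, 98.8 and 91.5 RPM in WTNT and at 87.9, 82.0, 95.6, 92.8 and 89.6 RPM in TGNT rats. The means were 89.7 ± 6.55 and 89.6 ± 5.14 RPM (SD, n = 5 each), and the log2 fold change of 0.01 (exact permutation p = 0.992) had a sign that moved with the normalization. Grik1, Grik3, Grik4 and Grik5 differed by 0.14, 0.24, -0.16 and -0.04. The lowest exact permutation p among these was 0.214, for Grik4. The delta receptor Grid1, which links synapses through cerebellins, differed by -0.09 (exact permutation p = 0.206).

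The only member below an unadjusted p of 0.05 was Grm7, a presynaptic metabotropic receptor that lowers transmitter release. Grm7 was at 62.6, 57.5, 68.2, 65.9 and 63.7 RPM in WTNT and at 68.8, 67.0, 71.5, 71.3 and 70.6 RPM in TGNT rats. TGNT rats were in a narrow band, and 4 of them lay above every WTNT rat while TGNT replicate 2 was below WTNT replicate 3. The log2 fold change was 0.14 (SE 0.0626, 1.10-fold) with an adjusted p of 1 (edgeR). The exact permutation test gave p = 0.0159, while the least that 5 rats against 5 can give is 0.00794. Over the fits without a single rat the unadjusted p of edgeR ranged from 0.0283 to 0.122, the latter without WTNT replicate 2.

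Grm5, the postsynaptic group I receptor, was at 266, 293, 257, 291 and 286 RPM in WTNT and at 290, 275, 287, 300 and 290 RPM in TGNT rats. Most TGNT rats sat at the upper end of the WTNT range (log2 fold change 0.06, SE 0.0564, exact permutation p = 0.270). The group II receptors Grm2 and Grm3 differed by -0.11 and -0.08, and the group III receptors Grm4 and Grm8 by -0.29 and 0.19. Grm8 had a standard error of 0.403, the largest of the 34 genes in this comparison. It was at 3.81, 8.59, 30.0, 5.63 and 20.9 RPM in WTNT and at 11.6, 22.9, 14.6, 16.0 and 14.7 RPM in TGNT rats, so the WTNT rats reached both further down and further up.

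Neto1 and Neto2 encode membrane proteins that bind kainate receptors and slow their closing, and Neto1 also binds NMDA receptors. Neto1 was at 302, 276, 255, 267 and 288 RPM in WTNT and at 248, 212, 320, 277 and 285 RPM in TGNT rats. The TGNT rats spread more widely, on both sides of the WTNT rats (log2 fold change -0.04, SE 0.0916, exact permutation p = 0.675). Neto2 differed by 0.06 (exact permutation p = 0.484).

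The scaffolds have different tasks. Dlg4 (PSD-95) anchors NMDA receptors, the Shank proteins form the deeper layer of the density, and Grip1 and Grip2 bind AMPA receptors. Shank3, in which mutations cause Phelan-McDermid syndrome in people, was at 462, 384, 269, 398 and 373 RPM in WTNT and at 379, 333, 325, 294 and 291 RPM in TGNT rats. WTNT replicate 3 was the lowest of the 10 rats and the other WTNT rats were at or above most TGNT rats. The log2 fold change was -0.21 (SE 0.113, exact permutation p = 0.175). Dlg4 was at 1092, 941, 747, 935 and 945 RPM in WTNT and at 1007, 911, 804, 790 and 761 RPM in TGNT rats. Again the lowest value was that of WTNT replicate 3 (log2 fold change -0.12, SE 0.0943, exact permutation p = 0.317). The remaining scaffolds Dlg1, Dlg2, Dlg3, Shank1, Shank2, Grip1 and Grip2 differed by -0.10 to 0.08.

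**Figure D2:**
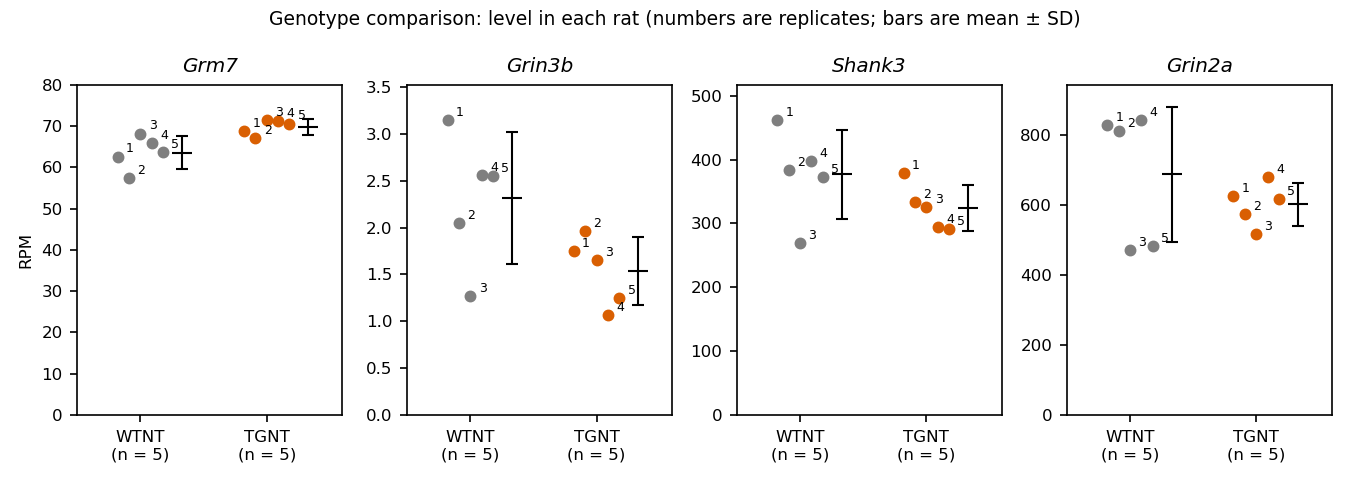
RPM (y axis, from 0) of Grm7, Grin3b, Shank3 and Grin2a in each WTNT and TGNT rat, with the replicate number beside each point and the mean ± SD at its right. WTNT replicate 3 is the lowest WTNT rat in Grin3b, Shank3 and Grin2a and the highest in Grm7.

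The calls depended on WTNT replicate 3. Without this rat 9 members were at an unadjusted p under 0.05, 3 of them higher in TGNT (Grin3a, Grik3 and Grm7) and 6 lower (Grin2a, Grin2b, Grin3b, Grik4, Dlg4 and Shank3). The shares over the 11357 genes averaging 10 or more counts were then 3.0% higher and 4.61% lower. Shank3 had the lowest p of the 34 genes in that fit, with a log2 fold change of -0.32 (SE 0.0833, adjusted p = 0.778, edgeR). Leaving out any other single rat gave 0 to 3 members. No member passed the adjusted threshold in any of these fits.

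The treatment comparison asked what DZ/DIB changes in TgF344-AD females. The lowest unadjusted p-values were those of the pair of kainate receptor auxiliary subunits, which went opposite ways. Their adjusted p-values were 0.858 for Neto1 and 0.964 for Neto2 (edgeR, quasi-likelihood), and Grm8 and Grik3 had larger fold changes. At an unadjusted p under 0.05, 3 members were higher in TGTR rats (Neto2, Grik3 and Dlg1) and 1 was lower (Neto1). The shares over the 12029 genes averaging 10 or more counts were 3.9% and 2.24% (edgeR, quasi-likelihood). The median log2 fold change of the 34 genes was -0.04, against 0.0002 over these 12029 genes. Of the members 14 were higher and 20 lower, against 6029 and 6000 of these genes. Without TGTR replicate 5, the rat with the highest choroid plexus markers, the median was -0.0015, with 16 members higher and 18 lower. Without any other single rat the median lay between -0.0586 and -0.0183. A difference under 0.1 was found in 15 of 34 members and in 7754 of the 12029 genes. The median absolute difference was 0.1151 over the members and 0.0675 over these genes.

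Neto1 had the lowest p of the members. It was at 232, 272, 293 and 256 RPM in TGNT rats, while TGTR rats had a lowest value of 183, a median of 207 and a highest value of 241 RPM. Only TGTR replicate 2, at 241 RPM, was above the lowest TGNT rat, replicate 1. TGTR rats averaged 211 ± 19.3 RPM (SD, n = 6) and TGNT rats 263 ± 25.8 RPM (SD, n = 4). The log2 fold change was -0.32 (SE 0.078, 0.803-fold) with an adjusted p of 0.858 (edgeR), and the exact permutation test of RPM gave p = 0.00952 (two-sided; the least that 6 rats against 4 can give is 0.00476). Over the 10 fits without a single rat it lay between -0.37 and -0.26.

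Neto2 was at 25.9, 21.4, 20 and 20.4 RPM in TGNT rats, and in TGTR rats the lowest value was 22.2, the median 26.8 and the highest 30.0 RPM. Every TGTR rat was above TGNT replicates 2, 3 and 4, and TGNT replicate 1 lay within the TGTR range. The log2 fold change was 0.28 (SE 0.0966, 1.21-fold) with an adjusted p of 0.964 (edgeR) and an exact permutation p of 0.0333. The ratio of Neto1 to Neto2 within a library does not depend on the scaling between libraries. It was 8.93, 12.6, 14.6 and 12.5 in TGNT rats and ran from 6.90 to 9.40 in TGTR rats. Only TGNT replicate 1 fell within the TGTR range. The geometric mean was 7.91 in TGTR and 12 in TGNT rats, 0.661-fold (exact permutation test, two-sided, p = 0.019). Adjusted over the 8 ratio tests made here, p was 0.152. Between genotypes the same ratio was 7.14 in TGNT and 7.78 in WTNT rats (exact permutation p = 0.444). Untreated TGNT rats thus stood at 7.14 (single rats 5.38 to 9.28) in the genotype table and at 12 (8.93 to 14.6) in the treatment table. The cause of this gap between untreated rats was not tested.

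**Figure D3:**
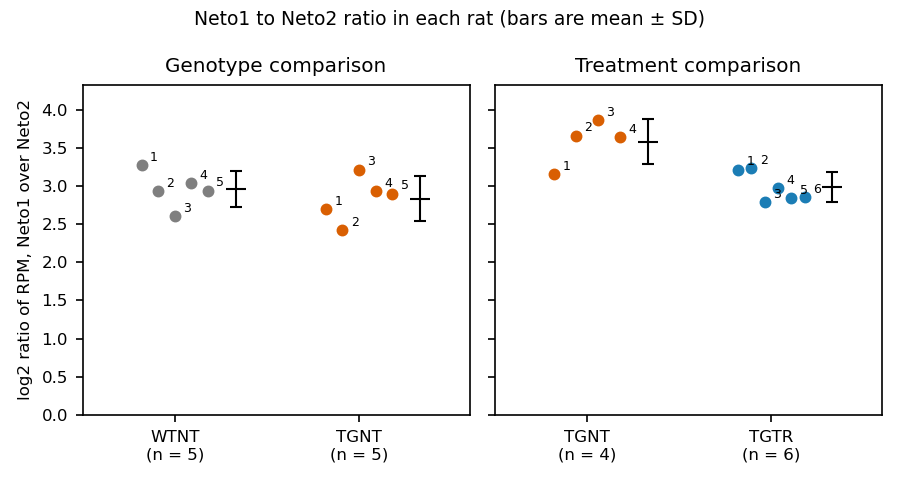
Log2 ratio of Neto1 to Neto2 RPM (y axis, from 0) in each rat of the genotype comparison (left) and the treatment comparison (right), with replicate numbers and mean ± SD. On the right the 6 TGTR rats lie between 2.79 and 3.23 and TGNT replicates 2, 3 and 4 between 3.64 and 3.87, while TGNT replicate 1 is at 3.16.

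Grik3 encodes a kainate receptor subunit of low glutamate affinity. It was at 42.5, 23.7, 19.4 and 23.3 RPM in TGNT rats, and in TGTR rats the lowest value was 29.5, the median 39.4 and the highest 44.5 RPM. TGNT replicate 1 stood at the level of the highest TGTR rats, and the other 3 TGNT rats were below every TGTR rat. The log2 fold change was 0.48 (SE 0.188, 1.39-fold, exact permutation p = 0.0667, adjusted p = 0.964 by edgeR). Without TGNT replicate 1 it was 0.78 (SE 0.123, 1.72-fold), and the adjusted p of 0.0908 (edgeR) was the lowest that any member reached in any fit. Dlg1 (SAP97), a scaffold that binds Gria1, showed the same arrangement. It was at 89.5, 64.3, 70.0 and 71.1 RPM in TGNT rats and in TGTR rats at 76.4 (lowest), 84.4 (median) and 103 RPM (highest). Here too TGNT replicate 1 was inside the TGTR range and the other 3 below it (log2 fold change 0.22, SE 0.0987, exact permutation p = 0.1, adjusted p = 0.99 by edgeR).

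**Figure D4:**
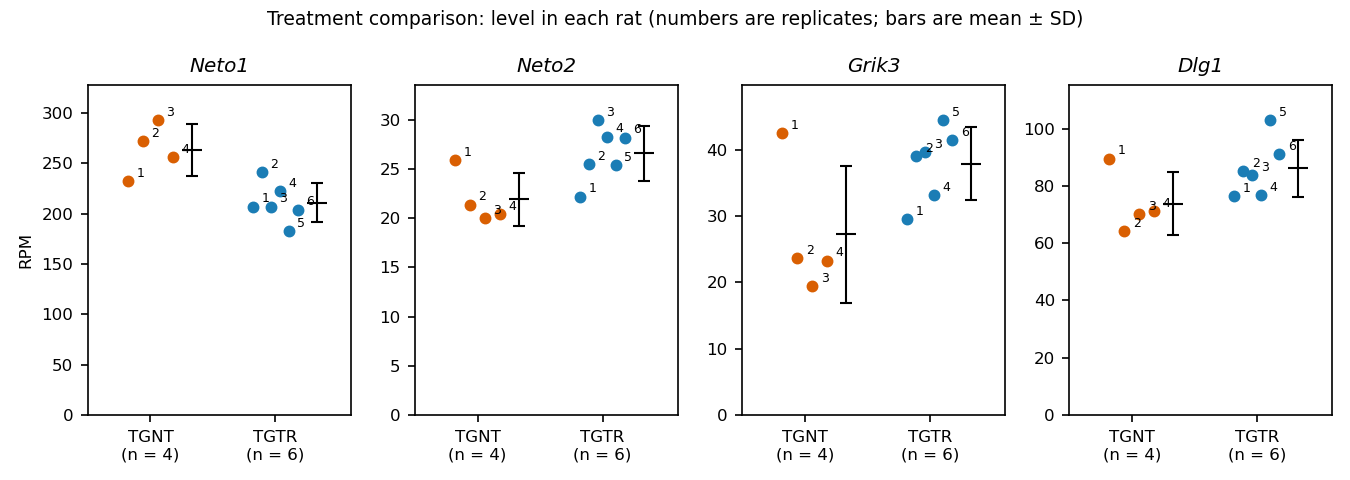
RPM (y axis, from 0) of Neto1, Neto2, Grik3 and Dlg1 in each TGNT and TGTR rat, with the replicate number beside each point and the mean ± SD at its right. TGNT replicate 1 lies apart from the other TGNT rats in Grik3 (42.5 against 19.4 to 23.7 RPM) and Dlg1 (89.5 against 64.3 to 71.1 RPM).

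Neto2, Grik3 and Dlg1 were the members higher in TGTR rats at an unadjusted p under 0.05, and the 250 bases before their annotated starts are shown so that these start regions can be compared. The sequences are those of RefSeq in the GRCr8 assembly, whereas the counts were made on rn6. They stand on the strand of the gene at chr19:37517305-37517554 (+) for Neto2, chr5:143052192-143052441 (+) for Grik3 and chr11:82607798-82608047 (-) for Dlg1. Capitals mark matches on either strand to 5 motifs, namely the GC box (GGGCGG), the CRE (TGACGTCA), an ATF4 element (TGATGNAA), the TATA box (TATAAA) and the E-box (CACGTG).
Neto2: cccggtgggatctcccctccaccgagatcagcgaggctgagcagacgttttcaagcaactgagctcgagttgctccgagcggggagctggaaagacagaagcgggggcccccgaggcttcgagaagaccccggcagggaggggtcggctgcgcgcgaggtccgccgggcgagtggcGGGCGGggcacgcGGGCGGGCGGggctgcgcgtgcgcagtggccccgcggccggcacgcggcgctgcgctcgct
Grik3: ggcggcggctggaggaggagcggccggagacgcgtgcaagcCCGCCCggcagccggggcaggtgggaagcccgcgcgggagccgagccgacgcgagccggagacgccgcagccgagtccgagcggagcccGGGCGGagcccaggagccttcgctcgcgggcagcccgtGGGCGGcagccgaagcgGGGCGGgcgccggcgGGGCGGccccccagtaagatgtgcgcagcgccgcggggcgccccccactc
Dlg1: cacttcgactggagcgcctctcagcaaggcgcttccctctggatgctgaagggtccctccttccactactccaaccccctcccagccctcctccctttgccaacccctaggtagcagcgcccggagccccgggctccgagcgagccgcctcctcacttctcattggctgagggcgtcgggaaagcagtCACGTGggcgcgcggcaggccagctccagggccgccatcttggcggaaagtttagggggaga

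The Neto2 window held 3 GC boxes, the latter 2 of which overlap by 2 bases, and that of Grik3 held 5, 1 of them on the opposite strand. The Dlg1 window held no GC box and 1 E-box. Over all 27457 windows of this length, 32.4% held a GC box, 5.79% an E-box, 3.27% an ATF4 element, 1.7% a CRE and 13.1% a TATA box. Windows were given for 21 of the 34 genes, of which 4 held a GC box (Grik3, Grik5, Grm7 and Neto2), 1 an ATF4 element (Grm7) and 0 a CRE or a TATA box. The GC content of the windows was 74.4% for Neto2, 81.6% for Grik3 and 66.4% for Dlg1, and their median was 59.6% over the 21 genes and 52.0% over all windows. These matches describe the sequence only.

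The AMPA receptor subunits differed by -0.10 to 0.10 with treatment. Gria1 was at 527, 650, 685 and 672 RPM in TGNT rats and at 441 (lowest), 610 (median) and 665 RPM (highest) in TGTR rats. The lowest rats were TGTR replicate 5 and TGNT replicate 1, and the groups overlapped (log2 fold change -0.10, SE 0.108, exact permutation p = 0.462). Gria2 was at 979, 1011, 1069 and 1161 RPM in TGNT rats and at 978, 1093 and 1123 RPM in TGTR rats (lowest, median and highest). TGTR rats lay within the TGNT range except TGTR replicate 5, which was just below it (log2 fold change 0.03, SE 0.0581, exact permutation p = 0.681). Gria3 and Gria4 differed by 0.05 and 0.10, and the ratio of Gria1 to Gria2 was 0.546 in TGTR and 0.599 in TGNT rats (exact permutation p = 0.205).

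For the NMDA receptor subunits the groups overlapped, though less so in Grin2c, at 83.5 to 118 RPM in TGTR and 109 to 129 RPM in TGNT rats. Grin1 was at 546, 647, 623 and 623 RPM in TGNT rats and at 484, 607 and 633 RPM in TGTR rats (lowest, median and highest; log2 fold change -0.05, SE 0.0742, exact permutation p = 0.510). Grin2a was at 390, 595, 666 and 714 RPM in TGNT rats and at 382, 585 and 677 RPM in TGTR rats (log2 fold change -0.10, SE 0.186, exact permutation p = 0.614). In each group 1 or 2 rats were far below the others, namely TGNT replicate 1 and TGTR replicates 2 and 5. Grin2b was at 577, 638, 642 and 680 RPM in TGNT rats and at 519, 638 and 669 RPM in TGTR rats (log2 fold change -0.05, SE 0.0816, exact permutation p = 0.538). The ratio of Grin2a to Grin2b was 0.884 in TGTR and 0.910 in TGNT rats (exact permutation p = 0.781). Grin2c, Grin2d, Grin3a and Grin3b differed by -0.16, -0.13, 0.14 and 0.24, with exact permutation p-values between 0.157 and 0.676.

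Among the other kainate receptor subunits, Grik2 was at 91.2, 76.2, 79.1 and 76.0 RPM in TGNT rats and at 70.7, 74.6 and 86.1 RPM in TGTR rats (lowest, median and highest). TGTR rats were mostly at or below the lower TGNT rats, with TGTR replicate 2 above them (log2 fold change -0.09, SE 0.0671, exact permutation p = 0.267). Grik4 and Grik5, which encode the high affinity subunits, differed by -0.27 and -0.15 (exact permutation p = 0.119 and 0.0762), and Grik1 by 0.17 (p = 0.324). Grik4 was lowest in TGTR replicate 5, at 69.1 RPM, against 90.3 to 136 RPM in TGNT rats and 92.0 to 113 RPM in the other TGTR rats. Grid1 differed by -0.08 (exact permutation p = 0.148).

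Of the metabotropic receptors, Grm5 was at 270, 272, 278 and 296 RPM in TGNT rats and at 227, 278 and 289 RPM in TGTR rats (lowest, median and highest). TGTR replicate 5 was the lowest of all 10 rats (log2 fold change -0.04, SE 0.0667, exact permutation p = 0.610). Grm7, the gene with the lowest p between genotypes, was at 90.1, 69.5, 75.7 and 72.4 RPM in TGNT and at 70.3 to 76.0 RPM in TGTR rats, a log2 fold change of -0.09 (exact permutation p = 0.252). The median difference over the 6 receptors was 0.16, since Grm2, Grm3, Grm4 and Grm8 were higher by 0.20, 0.13, 0.29 and 0.73, with exact permutation p-values of 0.1 to 0.2. Grm8 had a standard error of 0.406, with 16.4, 3.17, 3.16 and 7.73 RPM in TGNT rats and 7.85 to 19.4 RPM in TGTR rats.

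Among the scaffolds, Dlg4 was at 896, 1029, 992 and 1019 RPM in TGNT rats and at 819, 965 and 1042 RPM in TGTR rats (lowest, median and highest; log2 fold change -0.04, SE 0.0678, exact permutation p = 0.557). Shank3 was at 540, 755, 627 and 643 RPM in TGNT rats and at 422, 593 and 689 RPM in TGTR rats (log2 fold change -0.13, SE 0.118, exact permutation p = 0.400). In both genes TGTR replicate 5 was the lowest rat and TGNT replicate 1 was the lowest of its group. Apart from Dlg1, the other scaffolds Dlg2, Dlg3, Shank1, Shank2, Grip1 and Grip2 differed by -0.07 to 0.13, and Shank1 was at 1510 RPM in TGTR replicate 5 against 1761 to 1837 RPM in the other TGTR rats.

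As between genotypes, a single untreated rat moved the calls. Without TGNT replicate 1 there were 12 members at an unadjusted p under 0.05. Of these 10 were higher in TGTR (Gria4, Grin3a, Grik1, Grik3, Grm2, Grm4, Grm8, Neto2, Grip2 and Dlg1) and 2 lower (Grik4 and Neto1). In that fit the shares were 5.77% higher and 3.28% lower over the 12029 genes averaging 10 or more counts. Grm8 then differed by 1.44 (SE 0.322, 2.71-fold) and Grin3a by 0.55 (SE 0.153, 1.47-fold), with adjusted p-values of 0.212 and 0.32 (edgeR). Leaving out any other single rat gave 2 to 6 members. Without TGTR replicates 5 and 6, the rats with choroid plexus transcripts, Neto1 at -0.26 and Neto2 at 0.27 were still at an unadjusted p under 0.05, and Grik3 at 0.38 was not (edgeR). Neto1 and Neto2 were the members called in all 10 fits that each left out 1 rat.

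The spread between rats differed widely among the members. The biological coefficient of variation, which is edgeR's estimate of the spread between rats beyond counting error, had a median of 11% over the 34 genes in the genotype table and 10.1% in the treatment table. The medians over all genes averaging 10 or more counts were 10.1% and 9.3%. It was highest for Grm8 (46.1% and 43.2%) and Grin3a (32.0% and 26.1%), both in the top 10% of these genes in each table. Grik3 had 24.1% and 20.2% and Grin2a 17.9% and 20.9%. The steadiest members were Grm7 (6.87%) and Grm5 (7.27%) in the genotype table and Grid1 (6.29%) and Shank2 (7.0%) in the treatment table. The SD of log2(RPM + 0.1) was larger in WTNT than in TGNT rats in 29 of 34 members. It was larger in WTNT rats in 55.8% of the 11357 genes averaging 10 or more counts. In the treatment table TGNT rats were more spread than TGTR rats in 21 of 34 members, against 46.3% of the 12029 such genes.

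Several members, not all of them among the most variable, had their highest or lowest levels in the same rats. The 9 genes named here were chosen after their values were seen, so they carry no test. In WTNT rats, replicates 3 and 5 held the 2 highest levels of Grm8, Grin3a, Grik3, Grik1, Dlg1 and Gria4 and the 2 lowest levels of Gria1, Dlg3 and Grin2a. Grin3a, for example, was at 36.0 and 36.3 RPM in these rats and at 12.3 to 14.0 RPM in the other WTNT rats. In the treatment table TGNT replicate 1 was the highest of its group in the same 6 genes and the lowest in the same 3. Grin3a was at 38.6 RPM in that rat and at 14.7 to 19.6 RPM in the other TGNT rats. TGTR replicate 1 was the lowest of its group in the 6 genes and the highest in the 3, and TGTR replicate 5 was first or second in the 6 and the lowest in the 3. Of the TGNT rats of the genotype table, replicate 1 was the lowest of its group in Grm8, Grik3, Dlg1 and Gria4, the highest in Gria1 and Dlg3 and the second highest in Grin2a and Grik1. No TGNT rat of that table was at the extreme in all 9 genes, and their levels of Grin3a ran from 21.4 to 36.9 RPM.

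**Figure D5:**
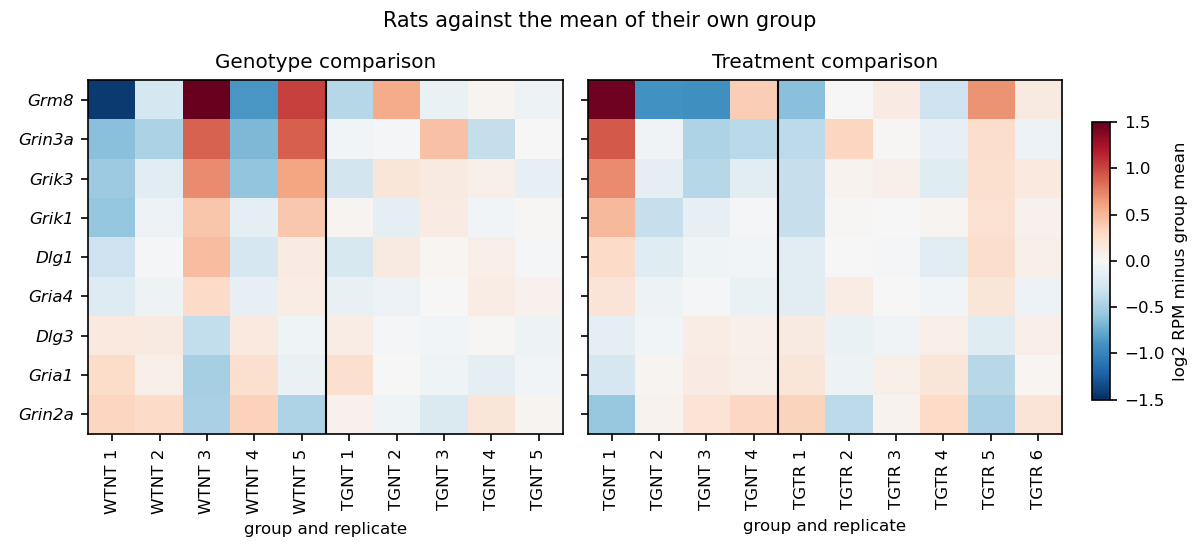
Deviation of each rat (x axis) from the mean of its own group in log2 RPM (colour, red above and blue below the mean) for 9 members (y axis) in both comparisons, with a black line between groups. WTNT replicates 3 and 5 and TGNT replicate 1 of the treatment comparison are above their group in the upper 6 genes, with Grm8 at 1.55, 1.02 and 1.46, and below it in Gria1, Dlg3 and Grin2a.

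Markers of cell types and of neighbouring regions also differed among these rats. The mean log2(RPM + 1) of 6 interneuron markers was 6.60 and 6.45 in WTNT replicates 3 and 5 and 6.00 to 6.16 in the other WTNT rats. It was 6.49 in TGNT replicate 1 of the treatment table, 6.05 to 6.28 in the other TGNT rats and 6.24 to 6.54 in TGTR rats, with 5 of 6 markers higher in TGTR. All 4 markers of subiculum and cortex had a higher mean in the TGTR group, with levels of 4.66 to 5.20 against 4.42 to 4.90. Of the 5 CA1 pyramidal cell markers 4 were higher in TGTR rats, with levels of 6.50 to 7.12 against 6.51 to 6.95. Of 7 neuronal markers 1 was higher in TGTR rats (levels of 9.225 to 9.448 against 9.323 to 9.439). The same held for 0 of 5 astrocyte, 1 of 6 microglia, 5 of 6 oligodendrocyte and 3 of 3 endothelial cell markers. The dentate granule cell markers were at 4.26 to 4.81 in TGTR and 4.41 to 4.67 in TGNT rats. The part of these markers in the differences of the receptor genes was not tested.

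Other genes of the same synapse were looked at as a list of 39, of which 37 were in the tables. Between genotypes 2 were higher and 1 was lower in TGNT rats at an unadjusted p under 0.05, and 0 passed the adjusted threshold (edgeR, quasi-likelihood). Over the 11357 genes averaging 10 or more counts the shares were 1.99% higher and 1.9% lower. The median log2 fold change of the list was -0.09, with 27 of 37 genes lower, against 5405 of these 11357 genes. Cnih3, which encodes an AMPA receptor auxiliary protein, was higher by 0.54 (5.53 ± 1.00 against 3.79 ± 0.766 RPM, SD, n = 5 each, exact permutation p = 0.0317). Dlgap4, which encodes a protein that bridges Dlg4 and the Shanks, was lower by a log2 fold change of -0.11 (exact permutation p = 0.00794), and the groups did not overlap (119 to 125 RPM in TGNT, 129 to 137 RPM in WTNT rats).

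Between treatments 4 of the 37 genes were higher and 1 was lower in TGTR rats at an unadjusted p under 0.05. Of the 37 genes 0 passed the adjusted threshold (edgeR, quasi-likelihood), and the median log2 fold change was -0.05. Over the 12029 genes averaging 10 or more counts the shares were 3.9% higher and 2.24% lower. Homer1, which encodes a scaffold that links group I metabotropic receptors to the Shanks, was higher by 0.19 (149 ± 6.45 RPM, SD, n = 6, against 131 ± 6.52 RPM, SD, n = 4, exact permutation p = 0.00952), and Homer2 by 0.26 (p = 0.0571). Cacng3, an AMPA receptor auxiliary subunit, was higher by 0.29 (exact permutation p = 0.0857). Among the vesicular glutamate transporters, Slc17a6 was higher by 0.87 and Slc17a8 lower by a log2 fold change of -0.36 (exact permutation p = 0.00952 and 0.0524). Groups did not overlap in Slc17a6, at 23.6 to 39.2 against 13.5 to 21.3 RPM. The adjusted p of these 5 genes ran from 0.4 to 0.964 with the quasi-likelihood test of edgeR. The paper reported Slc17a6 among the genes raised by treatment.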

How the data were processed

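Per the labels' processing notes, the authors used bcl2fastq 2.17, Bowtie2 2.1.0, RSEM 1.2.15 and the rn6 build to make the deposited estimated counts, which are 17168 genes by 10 rats in each of 2 tables. The authors also deposited a signal per gene, RPM scaled by TMM factors, whose sums per rat run from 930396 to 1027920. The tables were scaled separately, and ratios within a library also differed between their untreated TGNT rats. The ratio of Gria1 to Gria2, for example, was 0.348 in the genotype table and 0.599 in the treatment table. No level is therefore set across them. Estimated counts were rounded and fitted over all genes with edgeR 4.0.16 (R 4.3.3, TMM, quasi-likelihood test, Benjamini-Hochberg adjustment), after a test on simulated data. The deposited RPM gave the levels and the two-sided exact permutation tests (scipy 1.17.1), and 0.1 RPM was added in log2 ratios. Full values are given for the 3 members of lowest p in each comparison and for 10 core genes. Other members singled out were chosen after their values were seen, and the members and all lists were chosen with earlier results of these data known. The paper calls the wild-type rats littermates of the TgF344-AD rats, but which rats shared a litter is not stated. The tests took no account of litters and set each difference against the spread between these rats. Of the genes counted, 1 related gene and the transgenes other than App are not reported here by name. Alternatives were other scalings, filters and tests, DESeq2 1.42.0, limma 3.58.1, each rat left out, and the replicate number as a block. The depth of 5848458 to 14175594 counts per rat limits the low genes most, such as Grin3b.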

Additional observations from a re-analysis of the deposited data

Results flagged for a closer look

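Within groups of 4 to 6 rats, 200 groups were tested for a rat far from the others, and 8 had one, where chance gives about 10 (1 in 20). In the genotype table Gria3 was at 529 RPM in TGNT replicate 4, with the next rat at 474 RPM. WTNT replicate 5 was the highest of its group in Grid1 (80.3 RPM, next 68.3), Dlg2 (452 RPM, next 404) and Shank2 (423 RPM, next 378). In the treatment table Grik2 was at 86.1 RPM in TGTR replicate 2 (next 75.6), and Shank1 was at 1510 RPM in TGTR replicate 5, below the next rat at 1761 RPM. The mean log2(RPM + 1) of the dentate granule cell markers was 3.52 in WTNT replicate 3 (next 4.49) and 4.97 in TGNT replicate 1 of the genotype table (next 4.42). The cause of these values was not tested.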

How the results depend on the processing

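No member passed the adjusted threshold under any alternative that was run, and no result with a call changed its sign. Between genotypes the 1 member at an unadjusted p under 0.05 became 0 with RLE scaling, DESeq2, the likelihood ratio test and the exact test of edgeR, and 0 to 9 when each rat was left out. The 2 genes past the adjusted threshold became 4 with each of these tests of edgeR. The 1 member with an exact permutation p under 0.05 became 1 to 4 without single rats, and the log2 difference of the Gria1 to Gria2 ratio ranged from -0.088 to 0.0331 around -0.0187. Between treatments the 0 genes past the adjusted threshold became 4 with the exact test, 5 with the likelihood ratio test, 3 with DESeq2 and 1 with the replicate block. The 4 members at an unadjusted p under 0.05 became 1 with the replicate block, 2 without TGTR replicates 5 and 6, and 2 to 12 without single rats, the highest count being that without TGNT replicate 1. The 2 members by the exact permutation test became 4 for medians and 1 to 8 without single rats.

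Among the ratios between treatments, Gria3 to Gria2 (log2 difference 0.0257) was -0.0236 both within pairs of the replicate block and without TGTR replicates 5 and 6. Grin2a to Grin2b (-0.0407) was 0.0126 in both of these and -0.1844 to 0.0279 without single rats. Neto1 to Neto2 (-0.5978) was -0.5301 in both, with an exact permutation p = 0.25 within pairs and p = 0.0857 without those rats. TGTR replicates 5 and 6 have no TGNT rat of the same number, so the pairs leave them out too. The same rats enter both settings, and the equal differences follow by arithmetic and are not separate checks. Leaving out those 2 rats was chosen after seeing the data. The cause of these shifts was not tested, apart from the fewer rats that some settings leave. Deviations of same-numbered rats correlated between -0.19 and 0.303 in the genotype table and between -0.528 and 0.0928 in the treatment table. These few values did not show that the numbers pair the rats, and they cannot exclude it. For the 24 member results given in full, 519 of 539 values under alternatives kept their direction, and the 20 others were of Gria1, Gria2, Grik2 and Neto1 between genotypes and of Gria2 and Grm5 between treatments. Over all 34 members, 11 between genotypes and 6 between treatments took both signs when each rat was left out. The adjusted p of Neto1 ran from 0.103 (DESeq2) to 1. Depth limits Grin3b, with 8 to 20 counts per rat between genotypes.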
